A study of Mus musculus with 3 samples.

Results

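Nfil3 is one gene of the 27998 in each count table, where a single row carries the symbol (ENSMUSG00000056749), and it was followed through all 3 single-cell libraries of the series. Its product NFIL3, also called E4BP4, is a transcription factor with a basic leucine zipper that mostly represses its targets. The tables came from mouse bone marrow (C57BL/6) and hold UMIs, counts of single transcripts read at their 3′ end on the 10x Chromium v2 platform, with 1 library per group. ILCpro_KO came from Tcf7EGFPnull/- mice and was sorted as Lin- Kit+ 2B4+ a4b7+ Tcf7+, the last by the reporter at Tcf7. ILCpro_WT came from Tcf7EGFP/+ mice by the same sort, so the cells called WT carry the reporter allele on one chromosome. ALP, the all-lymphoid progenitors, came from Tcf7EGFP/+ mice, and the sort was Lin- Kit+ 2B4+ and a4b7-, with Flt3high and IL-7Ra+. The labels do not give the number of animals behind a library. After filtering, 716 ILCpro_KO cells, 1829 ILCpro_WT cells and 810 ALP cells remained.

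NFIL3 acts early in the making of innate lymphoid cells (ILCs) and natural killer cells, where it has been placed upstream of Id2 and Tox, and mice without it have few of their bone marrow precursors. TCF-1, the product of Tcf7, acts in the same early precursors. In dendritic cells NFIL3 represses Zeb2 and so lets Id2 and Batf3 establish the cross-presenting type called cDC1. NFIL3 reads the same DNA sites as the PAR family factors DBP, TEF and HLF, which activate where it represses, and through them it belongs to the output of the circadian clock.

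The libraries differ in ways that bear on every value below. The median cell had 5309 UMIs in ILCpro_KO, 2897 in ILCpro_WT and 4544.5 in ALP. Tcf7 had 57.3 CPM (UMIs scaled to the library total) in ILCpro_KO, 362 CPM in ILCpro_WT and 1.46 CPM in ALP, and which part of the gene the null allele lacks is not given in the sources used here, so these 3′ counts do not check the genotype. ILCpro_KO also held cells with markers of other lineages. Cells grouped as conventional dendritic cell-like, neutrophil-monocyte-like and T cell-like made up 10.6%, 13.4% and 3.07% of ILCpro_KO, against 4.43%, 0.820% and 0% of ILCpro_WT. ILCpro_KO shared 1 cell barcode with ILCpro_WT and 0 with ALP, and ILCpro_WT shared 4 with ALP. With a single library in each group there is no replicate to check a difference against, and intervals in parentheses are exact at 95% and cover counting error only.

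On GRCm38 Nfil3 lies on the minus strand at chr13:52967209-52981073 and has 2 exons in the GENCODE annotation. Exon 1 (chr13:52980861-52981073) is untranslated, and exon 2 (chr13:52967209-52969021) holds the whole coding sequence (chr13:52967481-52968866). The annotation places 0 other genes over it, so its reads are not shared with an overlapping or antisense gene. The stretch just before the gene is shown because the series compares progenitors with and without TCF-1, whose family reads sites with the core CTTTG. These are the 216 bases upstream of exon 1 from RefSeq (GRCm38.p6, chr13:52981074-52981289, minus strand), in which capitals mark every match to 6 motifs searched on both strands.

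Nfil3 promoter: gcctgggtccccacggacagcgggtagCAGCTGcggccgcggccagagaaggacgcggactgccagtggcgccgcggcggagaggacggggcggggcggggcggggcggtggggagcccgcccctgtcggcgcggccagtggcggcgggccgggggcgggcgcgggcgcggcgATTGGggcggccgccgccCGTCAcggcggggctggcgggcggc

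The capitals are 1 E box (CANNTG), 1 CCAAT box read on the other strand and 1 CRE core (TGACG) read on the other strand. CTTTG, the NFIL3 and PAR factor site TTANNTAA and the STAT site TTCNNNGAA had 0 matches each in the 250 bases before the RefSeq start. Among 32851 RefSeq promoters, windows of that length held CTTTG in 48.6%, TTANNTAA in 5.43%, TTCNNNGAA in 7.02%, CANNTG in 66.2%, CCAAT in 33.8% and TGACG in 17.8%. G and C made up 84.7% of the printed bases, against a median of 52.4% over all promoter windows. A match here is letters in a short window, and nothing about binding was measured.

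Nfil3 RNA was highest in the ILC progenitors without TCF-1, lower in those with it and lowest in the lymphoid progenitors. Its 669 UMIs in ILCpro_KO came to 153 CPM (141 to 165), its 447 in ILCpro_WT to 73.3 CPM (66.7 to 80.5), and its 67 in ALP to 16.3 CPM (12.6 to 20.7). The 3 intervals do not overlap. Against ILCpro_WT, ILCpro_KO was 2.08-fold higher (1.84 to 2.35), or 0.96 on the log2 scale with 10 CPM added, which is just short of the 2-fold mark used for calls. Of 9551 genes, 1.48% were called at least 2-fold higher and 0.869% at least 2-fold lower in this comparison, and Nfil3 was the 161st from the top. Against ALP, ILCpro_WT was 4.51-fold higher (3.48 to 5.91), a log2 ratio of 1.67, with 2.11% of 9616 genes called higher and 3.06% lower, and Nfil3 was the 81st from the top. Against the same ALP library ILCpro_KO was 9.37-fold higher (7.28 to 12.2), a log2 ratio of 2.63, with 2.01% of 9644 genes called higher and 1.43% lower, and Nfil3 was the 16th from the top. The last 2 comparisons share the ALP library, which differs from the ILC progenitors in its sort as well as in stage.

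Because deeper cells show a gene more often, the shares of cells with a Nfil3 UMI were compared after each cell was thinned at random to 1000 UMIs. Then 13.0% of ILCpro_KO cells (10.6 to 15.7), 5.86% of ILCpro_WT cells (4.83 to 7.04) and 1.73% of ALP cells (0.948 to 2.88) had one. Unthinned, a Nfil3 UMI was seen in 343 ILCpro_KO cells (47.9%), 308 ILCpro_WT cells (16.8%) and 40 ALP cells (4.94%). RNA free in the suspension can put UMIs into cells that do not make a transcript, and the ILCpro_KO library holds cells that bound this background. Its 22 T cell-like cells had 0 Nfil3 UMIs, with a median of 3875 UMIs a cell, and so did its 27 cells of an unnamed cluster led by Prss34, Mcpt8 and haemoglobin genes, with a median of 4878. Thinned, 0 of 22 and 0 of 27 cells allow shares of up to 15.4% and 12.8%, against 13.0% in the whole library, so these shares bound the background poorly. By level, the 0 UMIs allow up to 37.2 CPM and 22.8 CPM, against 153 CPM in the whole library. In ALP the groups with 0 Nfil3 UMIs were too small to bound the background closely. Its early lymphoid-like cluster of 524 cells had 12.3 CPM (8.03 to 18.0), any background included.

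Within each library Nfil3 was spread unevenly over cells. In ILCpro_KO 173 cells had 1 UMI, 86 had 2 and 84 had 3 or more, up to 7. In ILCpro_WT the counts were 208, 72 and 28 cells, up to 6. In ALP 27 cells had 1 UMI, 2 had 2 and 11 had 3 or more, up to 4. The 10% of cells with most Nfil3 UMIs held 43.0% of them in ILCpro_KO, 72.0% in ILCpro_WT and 100% in ALP, where under 10% of cells had any. Of the 11 ALP cells with 3 or more UMIs, 3 fell in an unnamed cluster of ILC progenitors that held only 8 ALP cells in all. Those 8 cells carried 12 of the 67 ALP UMIs.

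The level was also read by cell depth and by cell cycle phase. In 4 equal groups of cells, from the shallowest to the deepest, it was 165, 140, 171 and 143 CPM in ILCpro_KO, 74.9, 69.0, 62.9 and 80.9 CPM in ILCpro_WT, and 28.8, 21.7, 12.02 and 13.03 CPM in ALP. By phase, called from cell cycle genes, cells in G1 had 154 CPM in ILCpro_KO, 63.9 CPM in ILCpro_WT and 24.7 CPM in ALP. Cells in S had 167 CPM in ILCpro_KO, 80.7 CPM in ILCpro_WT and 15.5 CPM in ALP. Cells in G2/M had 135 CPM in ILCpro_KO, 87.3 CPM in ILCpro_WT and 12.9 CPM in ALP. Within each library the counting intervals of the phases overlapped one another. ILCpro_KO thus stood above ILCpro_WT in each phase, by 2.42-fold (1.96 to 2.98) in G1, 2.07-fold (1.67 to 2.57) in S and 1.55-fold (1.23 to 1.95) in G2/M.

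**Figure D1:**
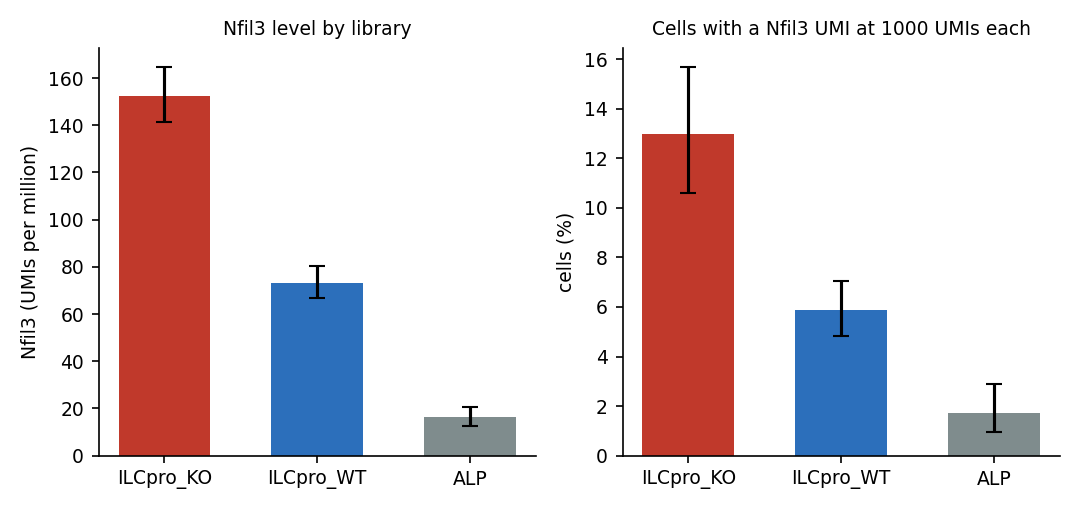
Left, Nfil3 level in each library in CPM, and right, percent of cells with a Nfil3 UMI after thinning every cell to 1000 UMIs, for ILCpro_KO, ILCpro_WT and ALP. Bars are the values of 1 library each and whiskers the exact 95% counting intervals; both measures fall in the order ILCpro_KO, ILCpro_WT, ALP, at 153, 73.3 and 16.3 CPM and at 13.0%, 5.86% and 1.73%.

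All 3355 cells were then grouped by the rest of their transcriptome, with Nfil3, the lineage markers and the cell cycle genes left out, to see where Nfil3 RNA lay. One unnamed group of the 14, cluster 1, had Nfil3 as its leading gene, ahead of Cpa3, a mast cell protease gene, and of Osbpl1a. The rank of Nfil3 in the matching cluster was 4 at resolution 0.5, 3 at resolution 1.5 and 1 with 30 neighbours. It held 163 ILCpro_KO cells and 372 ILCpro_WT cells. There Nfil3 had 223 CPM (192 to 257) in ILCpro_KO and 157 CPM (136 to 181) in ILCpro_WT, and 28.1% of all Nfil3 UMIs of ILCpro_KO and 42.7% of those of ILCpro_WT came from it. Rora and Zbtb16, factors of ILC precursors, were low in cluster 1. Rora, a nuclear receptor of ILC precursors, had 15.4 CPM there in ILCpro_KO and 23.0 CPM in ILCpro_WT, against 1298 CPM in the ILCP-like cells of ILCpro_WT. Zbtb16, whose product PLZF marks committed ILC precursors, had 53.3 CPM in ILCpro_KO and 87.2 CPM in ILCpro_WT in cluster 1, against 599 CPM in the ILCP-like cells of ILCpro_WT. Irf8, a factor of dendritic cells and monocytes that early lymphoid progenitors also express, ran the other way, at 715 CPM in ILCpro_KO and 582 CPM in ILCpro_WT in cluster 1 and 57.3 CPM in those ILCP-like cells.

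In ILCpro_WT the order of Nfil3 levels was cluster 6, an unnamed group led by Bhlhe41, Lingo4 and Cd7, with 202 CPM (151 to 264), then cluster 1 with 157 CPM and the conventional dendritic cell-like cluster 7 with 110 CPM (73.5 to 158). The intervals of neighbours in these first 3 overlapped. Cluster 6 also had raised Batf3, H2-Aa, H2-Ab1 and H2-Eb1, markers of conventional dendritic cells. It was kept wherever clusters of other lineages were left out. Below clusters 6, 1 and 7 came the unnamed cycling cluster 4 with 72.9 CPM (57.0 to 91.8), the EILP-like cluster 3 with 44.1 CPM (33.8 to 56.6) and the ILCP-like cluster 0 with 21.8 CPM (14.9 to 30.8). Cluster 9, unnamed and led by Stab2, Klrd1 and Icos, had 3 Nfil3 UMIs in 93 cells, or 9.75 CPM (2.01 to 28.5). Thinned, 0 of its 92 cells had one, which allows a share of up to 3.93%. The ILCP-like share after thinning was 0.921% (0.300 to 2.14) and the EILP-like share 3.64% (2.09 to 5.84). Among clusters 0, 1 and 3 of ILCpro_WT, Nfil3 was lowest where Rora, Gata3 and Zbtb16 were highest. Gata3, a factor of ILC and T cell development, had 94.6 CPM in cluster 1 of ILCpro_WT, against 716 CPM in its ILCP-like and 310 CPM in its EILP-like cells.

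In ILCpro_KO clusters 1, 4 and 6 had 223, 210 (180 to 243) and 198 CPM (167 to 233), with overlapping intervals. The conventional dendritic cell-like and neutrophil-monocyte-like cells had 121 CPM (88.3 to 161) and 106 CPM (85.2 to 130). After thinning, 9.38% (4.38 to 17.1) of those neutrophil-monocyte-like cells still had a Nfil3 UMI. The ILCP-like and EILP-like groups, main places of ILC factors in ILCpro_WT, had 13 and 29 ILCpro_KO cells, fewer than the 30 required for a level. These groups, low in Nfil3 in ILCpro_WT, made up 29.8% and 24.1% of its cells, against 1.82% and 4.05% of ILCpro_KO cells. Cluster 6, high in Nfil3 in both libraries, made up 4.81% of ILCpro_WT cells and 22.8% of ILCpro_KO cells. In ALP the 2 early lymphoid-like clusters had 12.3 CPM (8.03 to 18.0) and 13.6 CPM (8.81 to 20.1).

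**Figure D2:**
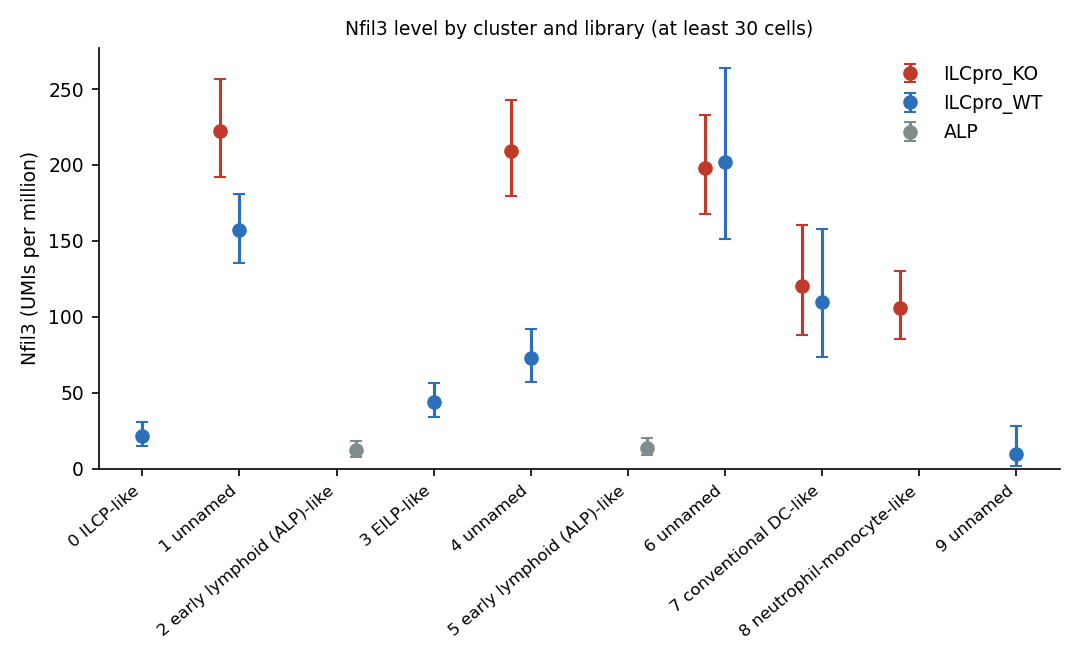
Nfil3 level in CPM for each cluster and library with at least 30 cells, with exact 95% counting intervals, ILCpro_KO to the left of ILCpro_WT and ALP. ILCpro_KO lies above ILCpro_WT in clusters 1 and 4 and overlaps it in clusters 6 and 7, and the ILCP-like and EILP-like clusters of ILCpro_WT lie at 21.8 and 44.1 CPM.

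Set against the same cluster in ILCpro_WT, Nfil3 in ILCpro_KO was 1.42-fold (1.15 to 1.74) in cluster 1 and 2.88-fold (2.174 to 3.836) in the cycling cluster 4. In cluster 6 it was 0.981-fold (0.712 to 1.37) and in the conventional dendritic cell-like cluster 7 it was 1.10-fold (0.675 to 1.81). These 4 clusters hold 64.3% of the UMIs of ILCpro_KO and 44.8% of those of ILCpro_WT. Over the 4 clusters together, each weighted by its total UMIs in ILCpro_KO, the level was 198 CPM with ILCpro_KO values and 137 CPM with ILCpro_WT values. Weighted by total UMIs in ILCpro_WT, it was 206 CPM with ILCpro_KO values and 126 CPM with ILCpro_WT values. The make-up of clusters thus differs between the libraries. So does the level within clusters 1 and 4, while in clusters 6 and 7 it did not differ beyond counting error. Whether cluster 4 held the same kinds of cells in both was not tested.

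The 5 genes whose levels ran most like those of Nfil3 over the 14 pairs of a cluster and a library with at least 30 cells were Rab27a, Nin, Mapkapk3, Ftl1 and Bin2, among 4127 genes compared. Their Pearson correlations with Nfil3 were 0.91, 0.90, 0.88, 0.86 and 0.86, of log2 levels with 10 CPM added; the pairs share libraries and depth, and the values are a description. Rab27a, a small GTPase of secretory vesicles, had 109 CPM in cluster 1 and 108 CPM in cluster 6 of ILCpro_KO, 74.1 and 95.2 CPM in the same clusters of ILCpro_WT, and 54.5 CPM in ILCP-like cells. Mapkapk3, a kinase downstream of p38, had 79.3 CPM in cluster 1 of ILCpro_KO, 73.2 CPM in that of ILCpro_WT and 19.8 CPM in ILCP-like cells. It also had 121 CPM in the neutrophil-monocyte-like cells of ILCpro_KO, where Nfil3 was lower than in cluster 1. Ftl1 encodes the ferritin light chain, Nin the centrosome protein ninein and Bin2 a membrane-binding protein of blood cells.

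For the genes whose detection went with Nfil3, cells with a Nfil3 UMI were compared with cells without one at the same depth in the same library, and a gene was called when the share of cells showing it differed by at least 10 percentage points. In ILCpro_KO 137 of 7912 genes (1.73%) were called higher and 85 (1.07%) lower. In ILCpro_WT 57 of 6038 genes (0.944%) were called higher and 44 (0.729%) lower. Cells of 1 library are not replicates, so no test stands behind these calls, and a difference near 10 points is close to the counting error of 343 and 308 cells.

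Without ribosomal and mitochondrial genes and gene models, 18 genes were called higher in both libraries, which is 13.6% of the calls in ILCpro_KO and 32.7% of those in ILCpro_WT. With clusters named for other lineages and the unnamed clusters 10 and 11 left out, a setting chosen after the data were seen, 6 of the 18 were called again there (Bex6, Cd34, Gpr171, Itga4, Ncf1 and Pou2f2), Irf8 differed by 9.98 points and Prr5 by -1.2, against 17 of 18 called again in ILCpro_WT. Compared within clusters, 2 of 18 were called again in ILCpro_KO and 4 of 18 in ILCpro_WT. After thinning to 1000 UMIs, 4 of 18 were called again in ILCpro_KO and 7 of 18 in ILCpro_WT. Irf8 was seen in 81.6% (77.1 to 85.6) of ILCpro_KO cells with Nfil3 and in 64.4% of those without, and in 61.4% (55.7 to 66.8) of ILCpro_WT cells with Nfil3 and 30.2% without. Bex6 had shares of 80.8% (76.2 to 84.8) with and 53.7% without Nfil3 in ILCpro_KO, and 49.03% (43.3 to 54.8) with and 21.8% without in ILCpro_WT. Mef2c, a factor of lymphoid-primed progenitors, had 87.2% with and 64.8% without in ILCpro_KO, and 59.4% with and 38.6% without in ILCpro_WT. Cd34, a surface protein of progenitors, had 52.2% with and 34.9% without in ILCpro_KO, and 34.7% with and 16.6% without in ILCpro_WT. Of 8 early lymphoid genes compared in each library, 3 were called higher and 1 lower in ILCpro_KO, and 2 higher and 1 lower in ILCpro_WT.

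Regulators and signalling genes were among the rest. Nfkb1, a subunit of NF-κB, was seen in 86.3% of ILCpro_KO cells with Nfil3 and 65.0% without, and in 70.5% of ILCpro_WT cells with Nfil3 and 47.9% without. Pou2f2, the octamer factor OCT2, had 61.5% with and 40.4% without in ILCpro_KO, and 35.7% with and 14.8% without in ILCpro_WT. Gpr171, a receptor coupled to G proteins, had the largest difference in ILCpro_KO, 66.2% (60.9 to 71.2) with and 36.0% without, and 35.4% with and 18.9% without in ILCpro_WT. Itga4, the a4 chain of the integrin in the gate, had 87.8% with and 65.8% without in ILCpro_KO, and 83.4% with and 69.7% without in ILCpro_WT. Ccnd2, a G1 cyclin, had 86.6% with and 69.7% without in ILCpro_KO, and 62.0% with and 42.5% without in ILCpro_WT. The other 9 were Cbfa2t3, Ctr9, Dap, Grb2, Mrps7, Ncf1, Nrros, Pan3 and Prr5, with differences of 11.1 to 17.1 points in ILCpro_KO and 10.1 to 18.1 points in ILCpro_WT. Ncf1 and Nrros belong to the NADPH oxidase, as a subunit and as a regulator, and Cbfa2t3 is a corepressor of blood progenitors. RefSeq promoters were found for 14 of the 18 genes, 20 windows in all. TTANNTAA occurred in 1 of them, that of Prr5, which is near its share of 5.43% over all promoter windows. CTTTG occurred in 5 of the 20 windows (48.6% over all), TTCNNNGAA in 4 (7.02%) and CANNTG in 12 (66.2%). CCAAT occurred in 8 (33.8%) and TGACG in 1 (17.8%), and none of these counts was tested.

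The 4 genes called lower in both libraries were Aldh2, Ets1, S100a6 and Tspan32, which is 4.88% of the calls in ILCpro_KO and 9.52% of those in ILCpro_WT. Ets1, a factor of ILC precursors and lymphocytes, was seen in 3.21% (1.61 to 5.67) of ILCpro_KO cells with Nfil3 and 13.6% without, and in 7.79% (5.06 to 11.4) of ILCpro_WT cells with Nfil3 and 26.5% without. Aldh2, an aldehyde dehydrogenase, had 30.03% with and 46.3% without in ILCpro_KO, and 26.6% with and 38.6% without in ILCpro_WT. Without the clusters of other lineages and clusters 10 and 11, Aldh2 alone was called again in ILCpro_KO, while S100a6 differed by -3.1, Tspan32 by -5.7 and Ets1 by -7.8 points, and 4 of 4 were called again in ILCpro_WT. Compared within clusters, 0 of the 4 were called in either library.

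**Figure D3:**
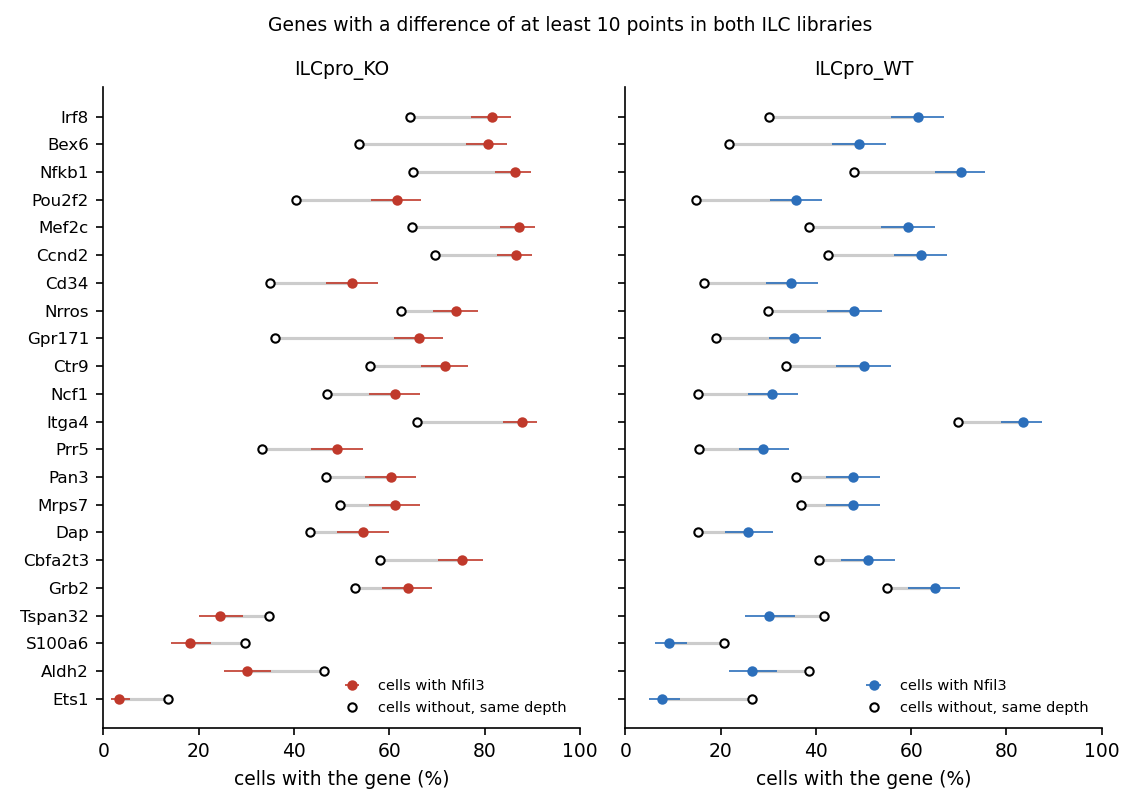
Percent of cells with a UMI of each of the 22 genes called in the same direction in both ILC libraries, for cells with a Nfil3 UMI (filled, with exact 95% intervals) and cells without one at the same depth (open), ILCpro_KO on the left and ILCpro_WT on the right. In both panels the filled points of 18 genes lie to the right and those of Tspan32, S100a6, Aldh2 and Ets1 to the left.

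More ILC transcription factors were called lower with Nfil3 in ILCpro_WT than in ILCpro_KO, a difference that was not tested. In ILCpro_WT 9 of the 12 ILC transcription factors that could be compared were called lower in cells with Nfil3 and 0 higher, with a median difference of -15.3 points, against 0.0583 over all genes compared. Rora had the largest difference among genes lower there, seen in 21.8% (17.3 to 26.8) of cells with Nfil3 and 52.1% without. Tox2, a relative of Tox, was seen in 16.6% with and 35.9% without, Ikzf2, an Ikaros family factor, in 39.6% with and 60.0% without, and Gata3 in 37.7% with and 56.0% without. Zbtb16 was seen in 33.4% with and 51.1% without, and Tcf7 itself in 47.1% with and 58.8% without. Of 13 ILC precursor surface and effector genes compared in ILCpro_WT, 3 (Pdcd1, Thy1 and Kit) were called lower and 1, Itga4, higher, with a median of -4.8 points. Thy1 differed by -14.4 and Kit by -11.8 points. Pdcd1, whose product PD-1 marks ILC precursors, was seen in 11.7% with and 29.3% without. Outside that list, Il7r, the interleukin 7 receptor chain, was seen in 7.14% with and 22.3% without, and Ccl5, a chemokine, in 35.4% with and 52.1% without.

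In ILCpro_KO 3 of the 11 factors that could be compared, Runx3, Tox and Id2, were called higher in cells with Nfil3 and 2, Ets1 and Lef1, lower. Runx3, a factor of cytotoxic and innate lymphocytes, was seen in 84.8% (80.6 to 88.5) of cells with Nfil3 and 60.5% without. Tox, needed for early ILC precursors, was seen in 57.1% (51.7 to 62.4) with and 35.7% without, and in 39.9% with and 46.0% without in ILCpro_WT. Id2, which blocks E proteins in ILC precursors, was seen in 79.0% (74.3 to 83.2) with and 62.6% without in ILCpro_KO, and in 54.9% (49.1 to 60.5) with and 65.7% without in ILCpro_WT. Of the others in ILCpro_KO, Rora differed by -8.0, Ikzf2 by -6.8, Gata3 by -2.1 and Zbtb16 by 0.24 points, none of them past the mark. In G1 cells of ILCpro_KO, Rora differed by -15.0, Ikzf2 by -15.6, Gata3 by -6.1 and Zbtb16 by -20.7 points.

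The cells without Nfil3 in ILCpro_KO were in part other cells. The 8 leading genes lower with Nfil3 there were Ly6c2, Gsr, Anxa1, Ms4a3, Gstm1, Ccl9, Clec12a and Ifitm3, among them genes of monocytes and granulocytes. Ly6c2, a monocyte surface gene, was seen in 8.75% (5.98 to 12.3) of cells with Nfil3 and 31.1% without, and Elane, a neutrophil granule protease, in 11.95% with and 28.4% without. Of 9 neutrophil-monocyte markers compared, 5 were called lower and 0 higher, with a median of -10.8 points. In ILCpro_WT 3 of the markers could be compared, and 2, Mpo and Prtn3, were called higher and 0 lower, with a median of 12.9 points. The neutrophil-monocyte-like cluster itself made up 13.4% of ILCpro_KO cells with Nfil3 and 13.4% of those without. Cells of clusters 10, 11 and 13, the basophil and erythroid, the Lyz2 and the T cell-like groups, made up 7.24%, 6.70% and 5.90% of the cells without Nfil3, against 0%, 0.292% and 0% of those with it. When these clusters and those named for other lineages were left out, Runx3 differed by 2.1, Tox by 2.9 and Id2 by 6.0 points in ILCpro_KO. Elane differed by 0.60 and Prtn3, another granule protease gene, by 12.9 points there. In the same cells Zbtb16 differed by -11.0, Rora by -10.8, Ikzf2 by -11.9, Lef1 by -10.9 and Tox2 by -10.1 points. In ILCpro_WT the differences in that setting were -19.0 for Zbtb16, -33.3 for Rora and -13.1 for Id2. Of the 137 and 85 calls in ILCpro_KO, 36 and 9 were called again in that setting, against 54 of 57 and 44 of 44 in ILCpro_WT.

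**Figure D4:**
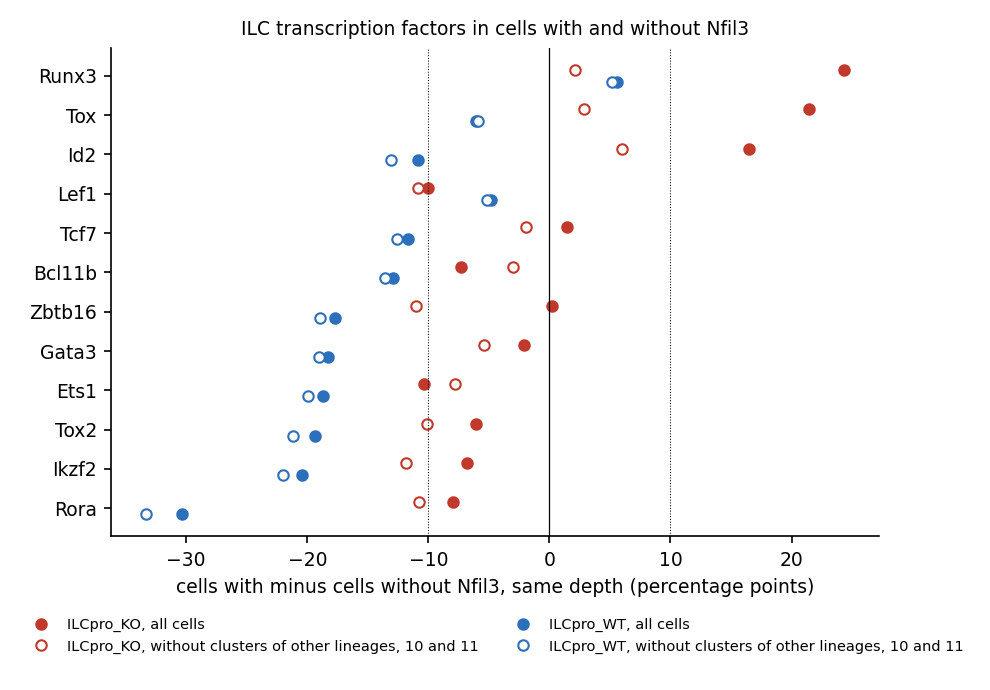
Difference in the percent of cells with a UMI of each ILC transcription factor between cells with and without a Nfil3 UMI at the same depth, for 12 factors, with all cells (filled) and without clusters of other lineages and clusters 10 and 11 (open). Runx3, Tox and Id2 lie above 10 points in ILCpro_KO with all cells and below it without those clusters, while each ILCpro_WT point stays on its side of 0; Tox2 and Bcl11b in ILCpro_KO were seen in under 5% of cells.

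Much of the ILCpro_WT pattern lay between clusters. Cluster 1 held 44.8% of ILCpro_WT cells with Nfil3 and 15.4% of those without, while the ILCP-like cluster held 5.84% of cells with Nfil3 and 34.6% of those without. Compared within clusters, again a setting chosen after the data were seen, 11 genes were called higher and 0 lower in ILCpro_WT. Irf8 then differed by 12.6, Nfkb1 by 14.1, Tm6sf1 by 14.0, Nrros by 12.3 and Bex6 by 10.6 points, and Rora by -4.3 points. In ILCpro_KO 116 genes were called higher and 48 lower within clusters, of which 28 and 4 were among the calls over all cells. Gpr171 differed there by 15.3, Flt3 by 14.5 and Pou2f2 by 13.1 points.

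**Figure D5:**
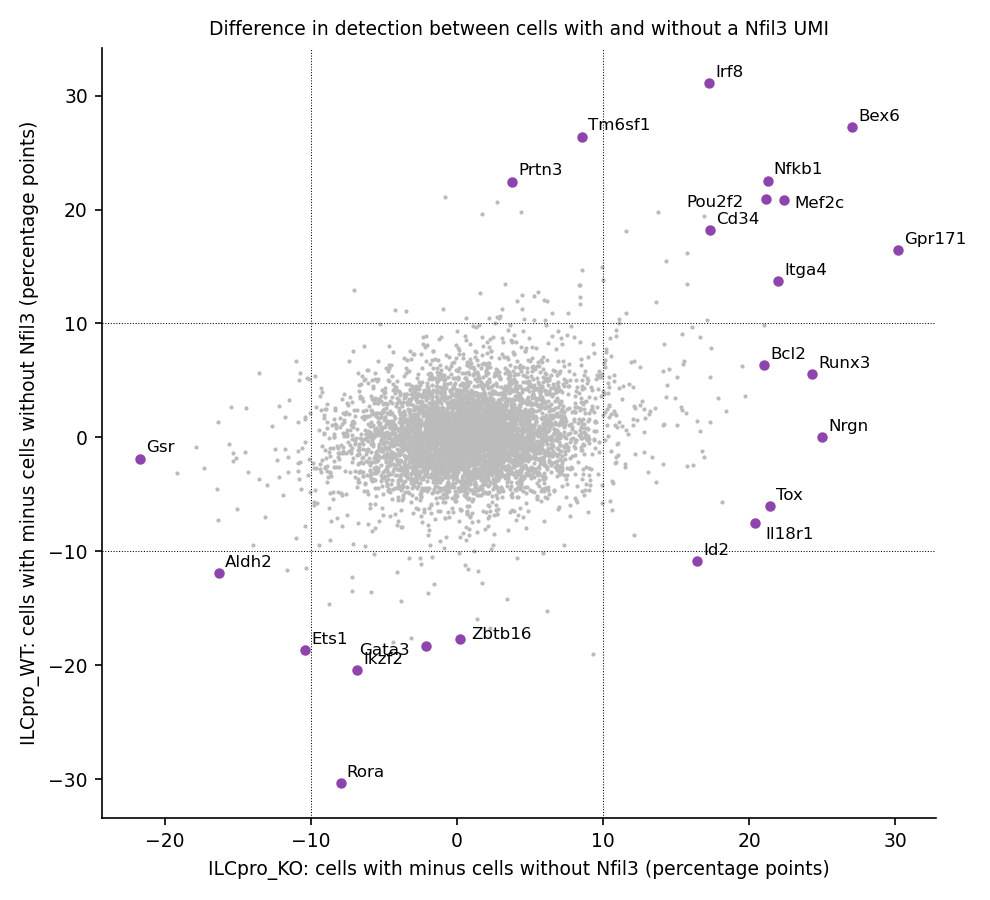
Each point is 1 of 5987 genes compared in both ILC libraries, by the difference in percent of cells showing it between cells with and without a Nfil3 UMI, in ILCpro_KO on the horizontal and ILCpro_WT on the vertical axis, with dotted lines at 10 points. Irf8, Bex6 and Gpr171 lie high in both, Rora at -30.3 in ILCpro_WT, and Id2, Tox and Il18r1 high in ILCpro_KO and below 0 in ILCpro_WT.

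Among the 12 highest in ILCpro_WT were Spi1, the gene of PU.1, seen in 38.0% with and 18.2% without Nfil3, and Prtn3, a granule protease gene, seen in 40.3% (34.7 to 46.0) with and 17.8% without. In ILCpro_KO Spi1 was seen in 72.0% with and 67.6% without Nfil3. Also among them in ILCpro_WT were Tm6sf1, a membrane protein gene, with 47.1% against 20.7%, Alox5ap, of leukotriene synthesis, with 42.2% against 21.1%, Rasgrp2, an exchange factor for Rap, with 44.2% against 24.5%, and Erp29, of the endoplasmic reticulum, with 74.7% against 54.0%. Among the 12 highest in ILCpro_KO were Nrgn, a calmodulin-binding protein, with 70.0% (64.8 to 74.8) against 45.0%, Bcl2, the survival gene, with 97.4% against 76.4%, Sox4 with 67.3% against 46.4% and Il18r1, the interleukin 18 receptor, with 39.9% against 19.6%. Without other lineages and clusters 10 and 11, Nrgn differed by 0.11, Bcl2 by 1.2, Sox4 by 1.5 and Il18r1 by 8.8 points.

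Of the genes tied to NFIL3 in dendritic cells, Zeb2, its repressed target there, was seen in 23.9% (19.5 to 28.8) of ILCpro_KO cells with Nfil3 and 39.0% without, and in 14.9% of ILCpro_WT cells with Nfil3 and 16.7% without. Without other lineages and clusters 10 and 11 the ILCpro_KO difference was -2.2 points. Flt3, a cytokine receptor of early progenitors and dendritic cells, was seen in 39.4% (34.2 to 44.7) with and 19.9% without in ILCpro_KO and differed by 10.7 points without those cells, and in 11.7% with and 5.42% without in ILCpro_WT. Batf3, partner of IRF8 in cDC1 cells, was seen in 14.9% with and 12.6% without in ILCpro_KO, and in 6.82% with and 7.13% without in ILCpro_WT. Of the 8 genes of this circuit 7 could be compared in ILCpro_KO, with 3 (Irf8, Id2 and Flt3) called higher and 1 (Zeb2) lower. Over all genes there, 1.73% were called higher and 1.07% lower. Without other lineages and clusters 10 and 11, Irf8 differed by 9.98 and Id2 by 6.0 points, so of these calls Flt3 alone stayed past the mark. In ILCpro_WT 6 could be compared, with 2 (Irf8 and Spi1) called higher and 1 (Id2) lower, against 0.944% and 0.729% over all genes. There they differed by 31.6, 20.7 and -13.1 points without those cells. By level, Irf8, Spi1 and Flt3 of the 7 compared were at least 2-fold higher in ILCpro_KO than in ILCpro_WT and 0 lower.

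The PAR factors that share the sites of NFIL3 were scarce. In ILCpro_KO 2 of them, Dbp and Tef, were seen in enough cells to be compared, in ILCpro_WT only Dbp, and 0 were called. Dbp had 12.1 CPM in ILCpro_KO, 22.2 CPM in ILCpro_WT and 20.9 CPM in ALP. Tef had 9.35 CPM in ILCpro_KO, 9.52 CPM in ILCpro_WT and 9.96 CPM in ALP, and Hlf 8.21 CPM in ILCpro_KO, 14.1 CPM in ILCpro_WT and 7.78 CPM in ALP. None of the 3 passed 2-fold in any of the 3 comparisons of libraries. Dbp was seen in 7.29% of ILCpro_KO cells with Nfil3 and 7.27% without, and in 8.44% of ILCpro_WT cells with Nfil3 and 8.21% without. Of the 16 clock genes 10 could be compared between ILCpro_KO and ILCpro_WT, and Bhlhe41 alone passed 2-fold, against 1.48% of all genes called higher and 0.869% lower. It had 47.9 CPM in ILCpro_KO, 6.89 CPM in ILCpro_WT and 0.729 CPM in ALP. Bhlhe41 is the leading gene of cluster 6, which made up 22.8% of ILCpro_KO cells and 4.81% of ILCpro_WT cells. Whether its level differs beyond this make-up was not tested. Of the 7 clock genes compared with Nfil3 in ILCpro_KO and 5 in ILCpro_WT, Per3 was the 1 called, lower in ILCpro_KO, where it was seen in 3.79% with and 14.0% without. Without other lineages and clusters 10 and 11 it differed by -6.2 points, and in G1 cells by 0.28 points. Of 12 immediate early genes, which rise quickly when cells are stimulated, 9 were compared in ILCpro_KO and 6 in ILCpro_WT. In both libraries 0 of them were called in either direction. Over all genes compared, 1.73% were called higher and 1.07% lower in ILCpro_KO, and 0.944% and 0.729% in ILCpro_WT. Counts of 0 in lists this short are near those shares and say little about the members.

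Nfil3 is induced by cytokines in several blood cells, and the genes of IL-7 receptor and STAT5 signalling were read beside it. In ILCpro_KO 1 of 9 was called higher, Bcl2, and 0 lower. In ILCpro_WT 0 of 11 were called higher and 3 lower, which were Il7r, Il2rg, the common γ chain, with 17.5% against 31.2%, and Socs1, an inhibitor of cytokine signalling, with 6.49% against 19.6%. Il7r had 9.35 CPM in ILCpro_KO, 96.1 CPM in ILCpro_WT and 146 CPM in ALP, so across the 3 libraries its levels ran in the order opposite to those of Nfil3. ALP cells were selected for IL-7Ra, the product of Il7r, and the ILC progenitors were not, so the place of ALP in this order cannot be told apart from the sort. ILCpro_KO and ILCpro_WT shared 1 sort without IL-7Ra, and the cause of their difference in Il7r was not tested.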

How the data were processed

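Messenger RNA was measured in single cells of 3 sorted bone marrow populations, 1 library each. The tables deposited by the authors give raw UMI counts, all whole, for every gene in every barcode. Per the submitters' processing notes, the tools were Cell Ranger 2.0.1, STAR 2.5.1b and bcl2fastq 2.17 and the build was mm10; how cells were called is not given in the sources used here. Of 716 ILCpro_KO, 1834 ILCpro_WT and 812 ALP barcodes, those with at least 500 genes and at most 10% mitochondrial UMIs were kept. The kept cells had 4384061, 6094683 and 4115605 UMIs in the same order, and 3 UMIs equal 0.684, 0.492 and 0.729 CPM.

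Levels are UMIs summed over cells and scaled to the library total. Log2 ratios add 10 CPM, and calls mean at least 2-fold among genes of at least 5 CPM in either library; folds are plain ratios. Intervals are Poisson for levels, conditional binomial for folds and Clopper-Pearson for shares. No replicates exist, so no test was run. Detection with Nfil3 was compared over 10 depth bins per library, weighted to the depths of the cells with Nfil3, among genes seen in at least 5% of cells. This step was tested on counts simulated from the mean profile of each library. Those counts hold no cell types, so the test does not cover differences between kinds of cells. Intervals beside such shares are those of the cells with Nfil3. Cells were clustered with scanpy 1.11.5 and leidenalg 0.10.2 (resolution 1, 15 neighbours, 30 components, 2000 variable genes). Clusters got a name from a cell type where at least 3 of its markers were raised at least 2-fold, more than for any other type. Further checks on leading genes and depth left some clusters that met this rule unnamed, cluster 6 among them. Doublets were kept, and an alternative removed the highest Scrublet scores. Named genes are the 12 highest and 8 lowest differences per library outside gene models and sex-linked, mitochondrial or ribosomal genes, those called alike in both, the 5 most like Nfil3 across clusters, members of gene lists and leading genes of clusters. Members, lists and markers were chosen with earlier results of these data known. One member of the ILC transcription factor list is counted there but not reported here by itself.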

Additional observations from a re-analysis of the deposited data

Results flagged for a closer look

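Id2 was the only gene called higher with Nfil3 in one ILC progenitor library and lower in the other. The share of cells with Id2 was 16.5 percentage points higher in ILCpro_KO cells with Nfil3 than in those without at the same depth, and -10.8 points in ILCpro_WT. Whether the 2 differences differ was not tested, since each group is 1 library. Without clusters of other lineages and clusters 10 and 11 the ILCpro_KO difference was 6.0 points, below the mark for a call, and the ILCpro_WT difference -13.1 points. In the within-cluster comparison they were 7.6 and 2.5 points.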

How the results depend on the processing

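The level and the share of cells with Nfil3 kept the order ILCpro_KO, ILCpro_WT, ALP under every alternative run for them. For ILCpro_KO over ILCpro_WT the log2 ratio was 0.96, but 1.15 in G1 cells, 1.18 without clusters of other lineages, 1.29 without clusters 10 and 11 as well and 0.72 with 50 CPM added, so it lies on either side of the 2-fold mark. For ILCpro_WT over ALP it was 1.09 in G1 cells, 2.11 with 1 CPM and 0.90 with 50 CPM added. For ILCpro_KO over ALP it was 2.25 in G1 cells, 3.15 with 1 CPM and 1.61 with 50 CPM added. Shares of cells move with depth by construction. Thinned to 500 UMIs they were 6.56% in ILCpro_KO, 3.55% in ILCpro_WT and 0.864% in ALP, thinned to 2000 UMIs 25.6% in ILCpro_KO and 11.3% in ILCpro_WT, and unthinned 47.9%, 16.8% and 4.94%. Genes called higher and lower with Nfil3 numbered 29 and 9 in ILCpro_KO and 33 and 16 in ILCpro_WT after thinning, where fewer genes were compared. Of the calls over all cells, 8 of 137 and 0 of 85 were called again then in ILCpro_KO and 14 of 57 and 10 of 44 in ILCpro_WT, with Bex6 at 0.65, Pou2f2 at 1.4 and Cd34 at -1.8 points in ILCpro_KO. In G1 cells, which are fewer, they numbered 254 and 136 in ILCpro_KO and 119 and 75 in ILCpro_WT, with 55 and 15 of the calls over all cells in ILCpro_KO and 44 and 41 in ILCpro_WT among them. Within clusters 48 were lower in ILCpro_KO, and 11 higher and 0 lower in ILCpro_WT. The highest Nfil3 level in a cluster was 274 CPM in ILCpro_KO at resolution 1.5 and 135 CPM in ILCpro_WT at resolution 0.5. Ranked by odds ratio, 3 of the 12 leading genes in ILCpro_KO and 5 in ILCpro_WT were the same. No paired analysis was possible because each group is 1 library.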
